A study of Mus musculus with 6 samples.

Results

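The genes described here carry the cyclic AMP (cAMP) signal from receptor-coupled G proteins to the nucleus, in LSK cells of mouse bone marrow. There were 43 such genes, chosen by symbol for their role in the pathway and found as 43 rows among the 55487 genes of the deposited table. They were chosen with earlier results of these data known. LSK cells are the lineage-negative, Sca-1- and Kit-positive marrow fraction in which the blood-forming stem cells and early progenitors are found. RNA was sequenced from 3 libraries of wild-type littermates and 3 libraries of mice whose Mc5r was knocked out (Mc5r-null). The series describes all mice as irradiated, without naming a dose, a time or an age, and unirradiated libraries were not analysed here, so the only comparison is between genotypes. It addresses what differs in these cells when Mc5r, the melanocortin 5 receptor, is missing. The labels name neither the mice behind a library nor their number, so the errors and p-values given here reflect only how far these libraries differ, and that may be technical.

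Mc5r is a receptor for melanocortin peptides that couples to the stimulatory G protein Gs. In that pathway, Gs activates adenylyl cyclases, the enzymes that make cAMP, while Gi proteins restrain them and phosphodiesterases degrade the product. Free cAMP releases the catalytic subunits of protein kinase A (PKA) from their regulatory subunits, and it also opens the EPAC exchange factors. PKA then phosphorylates CREB-family transcription factors in the nucleus and blocks the salt-inducible kinases, which otherwise keep the CRTC coactivators of CREB in the cytoplasm. In marrow, Gs-coupled inputs such as prostaglandin E2 are known to act on stem and progenitor cells.

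Total gene counts were between 13983016 and 14953169 per library. Mc5r itself had 181, 157 and 198 counts in the wild-type libraries and 0, 0 and 1 counts in the Mc5r-null libraries, which fits the labels. Libraries of the genotypes differed beyond Mc5r. All 3 wild-type libraries held both Xist, which is transcribed from the inactive X chromosome of females (1167 to 1281 counts), and the Y-linked Eif2s3y (857 to 910 counts), whereas the Mc5r-null libraries held 0 to 2 counts of Xist and 752 to 880 of Eif2s3y. The sex makeup of the mice and the genotype therefore cannot be told apart. Markers of cell types shifted as well. Of 13 LSK and stem cell markers 11 were higher and 0 lower in Mc5r-null, of 8 mast cell and basophil markers 0 were higher and 6 lower, of 8 myeloid progenitor markers 0 were higher and 6 lower, and of 8 plasma cell markers 8 were higher. Over all genes tested, 16.8% were higher and 16.1% were lower. Erythroid markers summed to 26.1 to 26.8 CPM in wild type and 171 to 172 CPM in Mc5r-null. The part of these shifts in the results below was not tested, and in RNA of a bulk cell fraction fewer cells of a type and less RNA per cell cannot be told apart. Reads were counted per gene with no strand setting given, so reads of a gene and of a transcript antisense to it, as at Gnas, cannot be told apart.

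The machinery as a whole was expressed in both genotypes and its called genes moved in both directions, mostly by small ratios. Of the 43 genes, 41 had enough counts to be tested and 17 were called different between the genotypes, which means an adjusted p below 0.05 in the quasi-likelihood test of edgeR, with Benjamini-Hochberg adjustment across all 15257 genes tested. That is 41.5% of the tested members, against 32.9% of all genes tested. Of these, 12 were higher in Mc5r-null (29.3%, against 16.8% of all genes) and 5 were lower (12.2%, against 16.1%). The members were chosen with earlier results of these data known, so these shares do not describe an independently chosen set. The tested members were more abundant than genes in general, with a median of 54.9 against 23.02 CPM (counts scaled to a common library size, with TMM factors), and small differences are called more easily at higher counts. With DESeq2 10 were higher and 2 lower. Their median log2 fold change was 0.05 (0.10 without wild-type replicate 3), against -0.005 over all genes, and the median absolute log2 fold change was 0.17 against 0.18. Called differences of at least 1.5-fold were seen in 1 member, Adcy4 (2.44% of the tested members, against 9.23% of all genes). For 26 of the 41 genes the values of the genotypes were fully separate (63.4%, against 48.2% of all genes), including all 17 that were called.

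**Figure D1:**
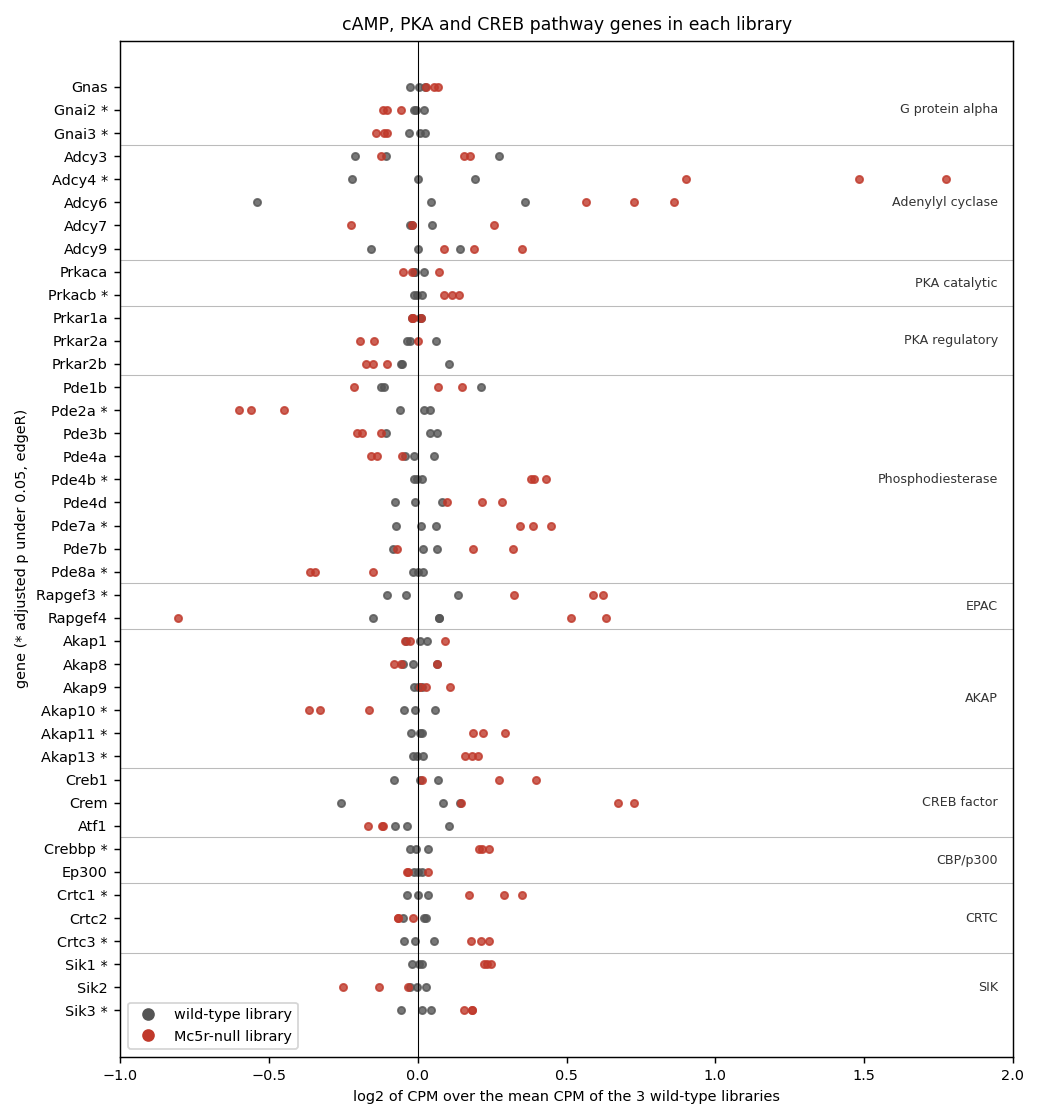
Each point is 1 library, placed by the log2 of its CPM over the mean CPM of the 3 wild-type libraries (grey wild type, red Mc5r-null), for the 41 tested genes grouped by role; asterisks mark an edgeR adjusted p under 0.05. Pde4b, Pde7a, Sik1 and Akap13 have 3 Mc5r-null points to the right of every wild-type point, Pde2a has them to the left, and Adcy4, Adcy6, Rapgef4 and Crem show wide scatter between libraries of 1 genotype.

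CREB binds DNA at the cAMP response element, whose full form is the palindrome TGACGTCA and whose shorter core is TGACG. The promoters of the members were searched on both strands for both, in RefSeq windows (GRCm38.p6) of 300 bases, from 250 before to 50 after each annotated start; a full site counts as 2 overlapping core sites. Windows were found for 36 members, 70 windows in all, since some genes have several starts. Gnai2, Adcy6, Pde3b, Pde7a, Crem, Crtc2 and Sik1 had no window, so their promoters were not searched. The full site lay in 2 windows, both of Prkar1a and both covering the same site, where 1.79% of all 32851 windows hold one. A core site lay in 22 of the 70 windows (31.4%), against 20.8% of all windows; windows of 1 gene can overlap. Among the 17 genes that differed between genotypes, 14 had a window and 8 of these held a core site (57.1%), against 18 of all 36 members with a window (50%). Those 36 include the 14, and a gene counts if any of its windows holds a core site. Such a share per gene was not computed over all genes. In 2 of the 8, Gnai3 and Pde2a, the core site lies after the start. Shown here, with the matches in capitals, are the full site and every match upstream of the start in a called gene, with 10 flanking bases. Each is read 5′ to 3′ in the direction of transcription, CGTCA being the core site on the opposite strand. The genes shown rose (Prkacb, Pde4b, Rapgef3, Akap11 and Sik3), fell (Pde8a) or were not called (Prkar1a). Gnas, Adcy7, Adcy9, Prkaca, Pde4a and Atf1, which were not called, also held core sites upstream of a start. Those sites are not printed, so the stretches do not compare called with uncalled genes.
Prkar1a (chr11:109650890-109650917, plus strand): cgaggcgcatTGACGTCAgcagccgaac
Sik3 (chr9:46012677-46012777, plus strand): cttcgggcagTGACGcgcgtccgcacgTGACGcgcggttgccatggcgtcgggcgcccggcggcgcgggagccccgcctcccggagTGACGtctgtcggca
Akap11 (chr14:78536975-78537091, minus strand): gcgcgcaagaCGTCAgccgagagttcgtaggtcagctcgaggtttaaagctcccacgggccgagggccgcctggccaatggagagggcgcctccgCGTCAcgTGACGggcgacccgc
Prkacb (chr3:146813034-146813058, minus strand): ggcttgaccgCGTCActtccggcgc
Pde4b (chr4:102421511-102421535, plus strand): tttggctgcaCGTCAattttctcat
Rapgef3 (chr15:97767843-97767867, minus strand): ttgaacccacTGACGtagtctcggg
Pde8a (chr7:81213171-81213195, plus strand): tgctttgcatTGACGccagcagccg
Sik3 and Akap11, which were called higher, and Prkar1a, which was not called, each held 3 core sites in a window (those of Prkar1a include the full site), a number reached by 1.03% of all windows. Those of Sik3 begin 133, 116 and 57 bases before its start and those of Akap11 221, 136 and 129 bases before. The Pde4b stretch has 18 bases and the Rapgef3 stretch all 25 in an annotated GENCODE exon, and the other stretches have none. A match is a description of the letters and was not tested as a site of binding.

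Gnai2 and Gnai3, which encode inhibitory alpha subunits that restrain adenylyl cyclase, both fell slightly. Gnai2 (ENSMUSG00000032562) had 663, 679 and 667 CPM in the wild-type libraries and 618, 623 and 643 CPM in the Mc5r-null libraries, a 1.07-fold decrease (log2 change -0.09 ± 0.02 (SE), edgeR adjusted p = 0.00959). Gnai3 (ENSMUSG00000000001) had 250.0, 241 and 247 CPM in the wild-type libraries and 223, 227 and 229 CPM in the Mc5r-null libraries, a 1.09-fold decrease (log2 change -0.12 ± 0.02 (SE), edgeR adjusted p = 0.00598). For both genes every Mc5r-null library lay below every wild-type library, and both calls were lost with DESeq2 (adjusted p = 0.18 and 0.113). Gnaz, a scarce inhibitory alpha subunit gene outside the 43 that was added after its values were seen, had 20, 15 and 19 counts in wild type and 25, 23 and 21 in Mc5r-null and did not pass (log2 change 0.47 ± 0.21 (SE), edgeR adjusted p = 0.146). Gnas, which encodes the Gs alpha subunit itself, had 375, 383 and 389 CPM in the wild-type libraries and 397, 400.2 and 389 CPM in the Mc5r-null libraries. Its Mc5r-null libraries all lay above the wild-type ones, with a gap of less than 1 CPM between the nearest libraries, and the difference did not pass (log2 change 0.05 ± 0.02 (SE), edgeR adjusted p = 0.12).

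Of the 5 adenylyl cyclase genes 1 was called (against 32.9% of all genes tested), Adcy4, which had the largest fitted change among the 41 tested members. Adcy7, the cyclase isoform typical of blood cells, was the most abundant of them, with 126, 126 and 132 CPM in the wild-type libraries and 109.7, 153 and 126 CPM in the Mc5r-null libraries. Its wild-type libraries lay close together and its Mc5r-null libraries on both sides of them, and the groups did not differ detectably (log2 change 0.02 ± 0.13 (SE), edgeR adjusted p = 0.935, 95% interval -0.31 to 0.35). Its Mc5r-null counts of 1523, 2122 and 1754 had a variance 51.1 times that of counting noise, the largest such ratio among the 43 members. The median ratio of the members was 1.04 in wild type and 1.34 in Mc5r-null. The ratio was below 1 for 21 members in wild type and for 16 in Mc5r-null. With 3 libraries per group the ratio of 1 gene is imprecise, and whether members varied more than counting noise was not tested. Adcy4 (chromosome 14, 55769057 to 55784095) was scarce, with 6, 7 and 8 counts in wild type and 18, 12 and 22 in Mc5r-null, and rose 2.66-fold (log2 change 1.41 ± 0.34 (SE), edgeR adjusted p = 0.0132). At these counts the fold is imprecise (95% interval of the log2 fold change 0.64 to 2.19), the call was lost with DESeq2 (adjusted p = 0.0709), and the gene is not tested where 1 CPM in 3 libraries is required. Adcy6 had 16.1, 30.0 and 24.1 CPM in the wild-type libraries and 38.7, 34.6 and 42.5 CPM in the Mc5r-null libraries. All 3 Mc5r-null libraries were above the wild-type ones, the wild-type libraries differed widely among themselves, and the gene did not pass (log2 change 0.72 ± 0.24 (SE), edgeR adjusted p = 0.08). It passed with DESeq2, with limma-voom and without wild-type replicate 1 or 2 (adjusted p between 0.00389 and 0.031). Adcy3 (12.9 ± 2.36 CPM (mean ± SD) across wild-type libraries and 13.6 ± 1.52 CPM across Mc5r-null ones) and Adcy9 (5.76 ± 0.599 CPM (mean ± SD) across wild-type libraries and 6.68 ± 0.618 CPM across Mc5r-null ones) overlapped between the genotypes and did not pass (edgeR adjusted p = 0.732 and 0.232). Adcy4 is known to be prominent in endothelium. Among markers of endothelium and stroma, 6 of 9 tested were higher and 0 lower (over all genes tested, 16.8% and 16.1%). Their summed level was 107.6 to 113.2 CPM in wild type and 125.1 to 131.4 CPM in Mc5r-null. Most of that sum is Pecam1, which was not called (95.2 ± 2.78 CPM (mean ± SD) across wild-type libraries and 94.8 ± 4.41 CPM across Mc5r-null ones), and the other 10 markers summed to 13.9 to 15.8 CPM in wild type and 31.6 to 33.7 CPM in Mc5r-null. Of the defining endothelial genes, Kdr had 12, 7 and 7 counts in wild type and 34, 35 and 39 in Mc5r-null, Cdh5 had 42, 39 and 33 against 41, 44 and 45, and the stromal marker Lepr was at 0 in all libraries. Col1a1, also a stromal marker, went the other way, with 12, 11 and 18 counts in wild type and 4, 8 and 5 in Mc5r-null. It was not called (edgeR adjusted p = 0.0558). The part of these markers in the rise of Adcy4 was not tested.

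Of the 6 genes for PKA subunits 5 were tested and 1 was called, against 32.9% of all genes tested. This was the catalytic subunit gene Prkacb (ENSMUSG00000005034, chromosome 3, 146729574 to 146812990), which had 165, 167 and 164 CPM in the wild-type libraries and 179, 175 and 182 CPM in the Mc5r-null libraries. The rise was 1.08-fold, with no overlap between the groups (log2 change 0.11 ± 0.03 (SE), edgeR adjusted p = 0.00972), and was not called by DESeq2 (adjusted p = 0.141). The other catalytic subunit gene, Prkaca, had 58.8, 60.1 and 58.6 CPM in the wild-type libraries and 62.2, 58.3 and 57.1 CPM in the Mc5r-null libraries, with a 95% interval of the log2 fold change -0.10 to 0.10 that includes 0. Prkar1a, which encodes the main regulatory subunit and whose promoter holds the full response element shown above, had 412, 413 and 405 CPM in the wild-type libraries and 406, 404 and 413 CPM in the Mc5r-null libraries. Its interval was also narrow (-0.05 to 0.04). The type II regulatory subunit genes did not pass, Prkar2a with 48.0 ± 1.77 CPM (mean ± SD) across wild-type libraries and 44.4 ± 3.16 CPM across Mc5r-null ones and Prkar2b with 49.2 ± 3.15 CPM (mean ± SD) across wild-type libraries and 44.6 ± 1.12 CPM across Mc5r-null ones (edgeR adjusted p = 0.205 and 0.0909). Prkar1b was close to absent, with 3 to 10 counts in any library, and was not tested. Per length of transcript, Prkar1a supplied most of the regulatory subunit RNA, 86.5 ± 0.29% of summed FPKM (SD, n = 3) in wild type and 87.5 ± 0.392% (SD, n = 3) without Mc5r.

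Which catalytic subunit led depends on how length is counted. FPKM values divide the counts of a gene by a length, and for 40 of the 43 genes (all but Gnas, Akap9 and Akap11) that length matched, within 1%, the sum of all distinct annotated exons of GENCODE release M21, overlapping exons counted repeatedly. It was up to 3.83 times the length of the merged exons, for Crem, which has 39 annotated transcripts, and equal to it for Gnai3, which has 1. FPKM therefore understates genes with many annotated transcripts when genes are compared, while comparisons of 1 gene between libraries are not touched. By FPKM Prkacb made up 33.6% of catalytic subunit RNA in wild type, but with the length of its principal transcript (4347 bases, against 2276 for Prkaca) it made up 59.4%. In both versions its share was higher in every Mc5r-null library than in any wild-type one, by 1.76 and 1.86 percentage points. Gnai2, Prkar1a and Sik1 were the 3 most abundant members on both scales, at 97.8, 91.0 and 81.1 FPKM in wild type, and Pde10a the least, at 0.0285 FPKM.

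**Figure D2:**
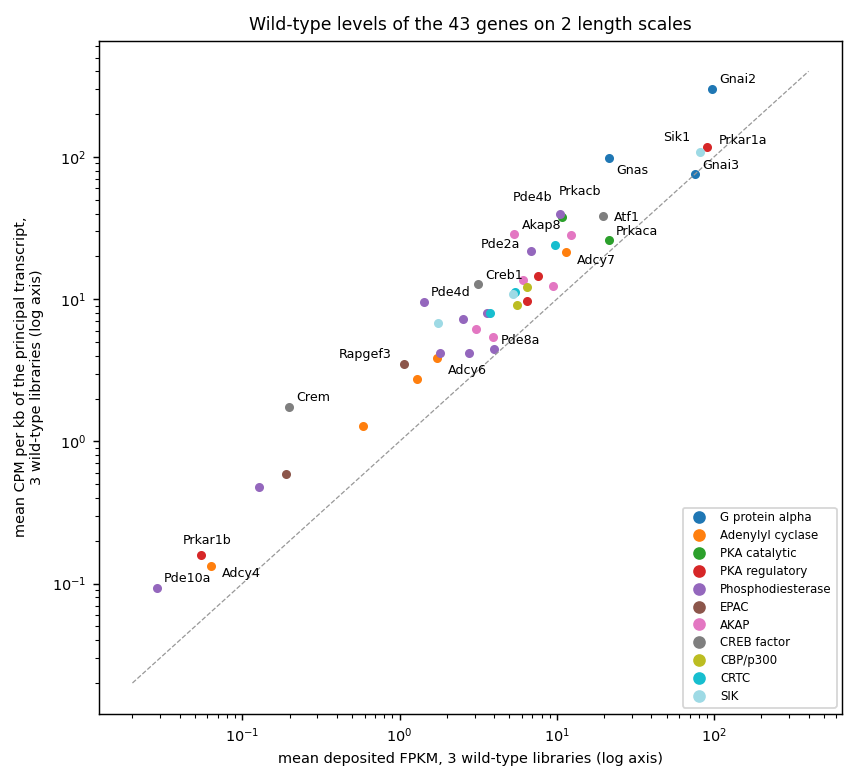
Wild-type means of the 43 genes (1 point each, coloured by role) as deposited FPKM against CPM per kb of the principal transcript, on log axes with the line of equality dashed. Nearly all points lie above the line, and genes with many annotated transcripts such as Crem, Pde4d and Akap8 lie farthest above it, while Gnai3 lies on it.

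The phosphodiesterases, which end the signal, moved in both directions, with 2 genes higher, 2 lower and 5 not called of the 9 tested (over all genes tested, 16.8% higher and 16.1% lower). Pde4b, a cAMP-specific enzyme that is itself a known cAMP-induced gene, rose 1.32-fold. Pde4b (ENSMUSG00000028525, chromosome 4, 102087543 to 102607259) had 174, 171 and 172 CPM in the wild-type libraries and 226, 232 and 224 CPM in the Mc5r-null libraries (log2 change 0.40 ± 0.02 (SE), edgeR adjusted p = 6.53e-06). Pde7a, another cAMP-specific enzyme of blood cells, rose 1.31-fold, with 33.6, 30.7 and 32.5 CPM in the wild-type libraries and 42.1, 43.9 and 40.9 CPM in the Mc5r-null libraries (log2 change 0.39 ± 0.06 (SE), edgeR adjusted p = 0.00112). Pde2a fell. This enzyme degrades cAMP faster when cGMP is bound, and its gene (ENSMUSG00000110195, chromosome 7, 101421691 to 101512827) had 88.5, 87.2 and 82.5 CPM in the wild-type libraries and 62.9, 56.7 and 58.3 CPM in the Mc5r-null libraries, a 1.45-fold decrease (log2 change -0.54 ± 0.05 (SE), edgeR adjusted p = 9.79e-05). For these 3 genes the libraries of the genotypes were far apart relative to their spread, and the calls held in all 14 alternative analyses. Pde8a, a high-affinity cAMP enzyme, had 16.7, 17.1 and 17 CPM in the wild-type libraries and 15.3, 13.3 and 13.2 CPM in the Mc5r-null libraries and fell 1.22-fold (log2 change -0.28 ± 0.08 (SE), edgeR adjusted p = 0.0308). That call is fragile, since it was lost with DESeq2 (adjusted p = 0.16), with the replicate block (adjusted p = 0.0577) and without any 1 library except Mc5r-null replicate 1 (adjusted p up to 0.0914).

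The remaining phosphodiesterases were not called. Pde3b, inhibited by cGMP, had 28.5, 28.9 and 25.7 CPM in the wild-type libraries and 25.4, 24.0 and 24.3 CPM in the Mc5r-null libraries, and Pde4a had 36.9, 36.1 and 38.5 CPM in the wild-type libraries and 33.8, 33.3 and 35.8 CPM in the Mc5r-null libraries. Both had all Mc5r-null libraries below the wild-type ones (edgeR adjusted p = 0.085 and 0.146). Pde4d did not pass either, with all Mc5r-null libraries above the wild-type ones, at 25.9, 23.2 and 24.4 CPM in the wild-type libraries and 29.8, 26.2 and 28.5 CPM in the Mc5r-null libraries (log2 change 0.20 ± 0.07 (SE), edgeR adjusted p = 0.0652). Pde1b (13.5 ± 1.86 CPM (mean ± SD) across wild-type libraries and 13.6 ± 1.73 CPM across Mc5r-null ones) and Pde7b (1.96 ± 0.102 CPM (mean ± SD) across wild-type libraries and 2.19 ± 0.292 CPM across Mc5r-null ones) overlapped between genotypes (edgeR adjusted p = 0.975 and 0.613). Pde10a had 15, 7 and 11 counts in wild type and 4, 3 and 3 in Mc5r-null, too few to be tested in the reported analysis, and without the count filter it was called lower (log2 change -1.57, edgeR adjusted p = 0.0319). The summed level of the 10 genes depends on the scale. It was 33.6 ± 0.292 FPKM (SD, n = 3) in wild type and 33.7 ± 0.594 FPKM (SD, n = 3) without Mc5r, with overlap. In CPM it was 413 ± 5.51 and 446 ± 5.99, and per kb of principal transcript 99.9 ± 1.41 and 107.8 ± 1.62 CPM, both higher in every Mc5r-null library. FPKM carries no TMM factors, but without them the sums were still separate, at 418 ± 5.23 and 441 ± 4.96 CPM, and at 101 ± 1.36 and 107 ± 1.41 CPM per kb. Pde4b made up 31.1 ± 0.006% of the summed FPKM in wild type and 40.0 ± 0.964% in Mc5r-null, and Pde2a 20.4 ± 0.704% and 13.7 ± 0.581%, with no overlap between the groups. With 3 libraries against 3, an exact permutation test of such a share cannot give a p below 0.1, and none is given.

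**Figure D3:**
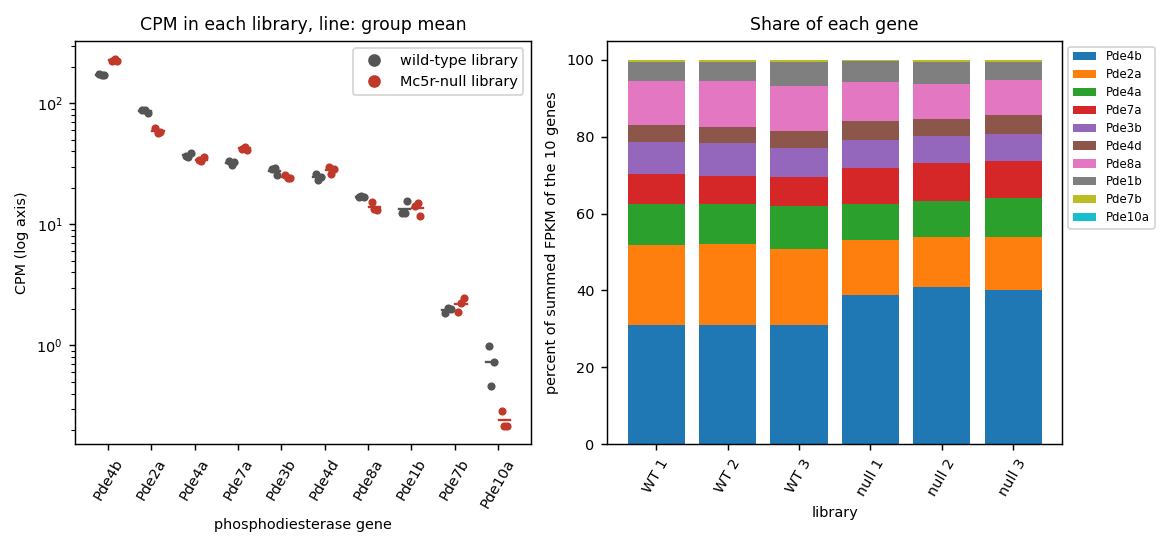
Left, CPM of the 10 phosphodiesterase genes on a log axis, with 3 wild-type (grey) and 3 Mc5r-null (red) libraries as points and group means as lines; right, the percent of their summed FPKM held by each gene in each library. Pde4b takes 31.1% in each wild-type library and 38.9 to 40.8% in the Mc5r-null libraries, while Pde2a takes 19.6 to 20.9% and 13.1 to 14.3%.

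The EPAC exchange factors carry the cAMP signal to the small GTPase Rap1 without PKA. Rapgef3, which encodes EPAC1, had 15.5, 13.7 and 13.1 CPM in the wild-type libraries and 17.6, 21.7 and 21.2 CPM in the Mc5r-null libraries and rose 1.43-fold (log2 change 0.52 ± 0.10 (SE), edgeR adjusted p = 0.00612). The call held in all 14 alternatives. EPAC1 is also known in endothelium, and of the endothelial and stromal markers given for Adcy4, 6 of 9 tested were higher and 0 lower (over all genes tested, 16.8% and 16.1%). Their part in the rise was not tested. Rapgef4, which encodes EPAC2, was scarce, and Mc5r-null replicate 3 stood apart from the other Mc5r-null libraries, with 38, 35 and 14 counts against 28, 28 and 24 in wild type (edgeR adjusted p = 0.628). The effector gene Rap1b, from the list of other pathway genes, fell from 287 ± 0.795 CPM to 256 ± 5.47 CPM (log2 change -0.16 ± 0.02 (SE), edgeR adjusted p = 0.000922).

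A-kinase anchoring proteins (AKAPs) tether PKA to particular sites in the cell. Akap13, a large anchor, and Akap11 rose, and Akap10 fell. Akap13 had 355, 359.6 and 351 CPM in the wild-type libraries and 403, 408 and 396 CPM in the Mc5r-null libraries, a 1.13-fold rise (log2 change 0.18 ± 0.02 (SE), edgeR adjusted p = 0.000294). Akap11, whose upstream stretch with 3 core sites is printed above, had 51.0, 50.7 and 49.7 CPM in the wild-type libraries and 58.7, 61.8 and 57.3 CPM in the Mc5r-null libraries, a 1.17-fold rise (log2 change 0.23 ± 0.04 (SE), edgeR adjusted p = 0.0047). Akap10, a dual-specificity anchor found on mitochondria, had 54.9, 51.1 and 52.4 CPM in the wild-type libraries and 41.0, 42.0 and 47.1 CPM in the Mc5r-null libraries, a 1.22-fold decrease (log2 change -0.28 ± 0.06 (SE), edgeR adjusted p = 0.00941). None of the groups overlapped for these 3 genes, and all 3 calls held in the 14 alternatives. The mitochondrial anchor gene Akap1 (46.2 ± 1.12 CPM (mean ± SD) across wild-type libraries and 46.4 ± 2.39 CPM across Mc5r-null ones), the nuclear anchor gene Akap8 (107 ± 4.39 CPM (mean ± SD) across wild-type libraries and 105 ± 5.71 CPM across Mc5r-null ones) and the centrosomal and Golgi anchor gene Akap9 (81.5 ± 0.836 CPM (mean ± SD) across wild-type libraries and 84.3 ± 3.16 CPM across Mc5r-null ones) overlapped and were not called, with 95% intervals of the log2 fold change of -0.11 to 0.13, -0.13 to 0.09 and -0.04 to 0.14.

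At the end of the pathway, 0 of 3 transcription factor genes were called. Among their coactivators, 1 of 2 acetyltransferase genes and 2 of 3 CRTC genes were called higher, against 16.8% of all genes tested. The log2 changes of Creb1 and Crem (0.24 and 0.54) were no smaller than those of the called Crebbp and Crtc3 (0.22 and 0.21). That of Atf1 was negative, and a difference between factors and coactivators was not tested. Creb1 had 64.5, 60.7 and 67.2 CPM in the wild-type libraries and 84.5, 77.5 and 64.8 CPM in the Mc5r-null libraries. One Mc5r-null library lay within the wild-type range, and the difference did not pass (log2 change 0.24 ± 0.10 (SE), edgeR adjusted p = 0.121), although it did without that library, replicate 3 (adjusted p = 0.00561). Crem, whose internal promoter gives rise to the cAMP-induced repressor ICER, had 74, 71 and 56 counts in wild type and 102, 68 and 98 in Mc5r-null, and did not pass (log2 change 0.54 ± 0.18 (SE), edgeR adjusted p = 0.0544). It passed without a filter on low counts and without Mc5r-null replicate 2 (adjusted p between 0.014 and 0.045). Atf1, the close relative of Creb1, did not pass, with 98.0, 86.4 and 88.8 CPM in the wild-type libraries and 84.0, 83.7 and 81.0 CPM in the Mc5r-null libraries (log2 change -0.14 ± 0.05 (SE), edgeR adjusted p = 0.0719).

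The paired acetyltransferases CBP and p300, which CREB recruits once phosphorylated, were measured at similar levels in wild type, and 1 of the 2 was called. Crebbp, which encodes CBP, had 101, 97.2 and 98.4 CPM in the wild-type libraries and 115, 117 and 114 CPM in the Mc5r-null libraries and rose 1.16-fold with no overlap (log2 change 0.22 ± 0.03 (SE), edgeR adjusted p = 0.000938). Ep300, which encodes p300, had 115, 117 and 116 CPM in the wild-type libraries and 113, 113 and 119 CPM in the Mc5r-null libraries. Its difference was within the spread between libraries (95% interval -0.08 to 0.06), and the difference between the changes of the 2 genes was not tested. Among the CRTC coactivators, which enter the nucleus when the salt-inducible kinases are off, Crtc1 had 44.6, 46.8 and 45.7 CPM in the wild-type libraries and 58.3, 51.5 and 55.8 CPM in the Mc5r-null libraries and rose 1.21-fold (log2 change 0.27 ± 0.06 (SE), edgeR adjusted p = 0.00624). Crtc3 had 57.2, 55.7 and 59.7 CPM in the wild-type libraries and 65.1, 66.6 and 67.8 CPM in the Mc5r-null libraries and rose 1.16-fold (log2 change 0.21 ± 0.04 (SE), edgeR adjusted p = 0.00619). Crtc2, the most abundant of the 3 per length, had 67.7, 67.5 and 64.2 CPM in the wild-type libraries and 65.7, 63.5 and 63.4 CPM in the Mc5r-null libraries and was not called (edgeR adjusted p = 0.387). Its share of the summed CRTC FPKM was 51.6 ± 1.24% (SD, n = 3) in wild type and 46.6 ± 0.602% (SD, n = 3) without Mc5r, with no overlap.

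The salt-inducible kinases are both brakes on the CRTC coactivators and, for Sik1, a classical CREB target. Sik1 (ENSMUSG00000024042, chromosome 17, 31844250 to 31855804) was among the most abundant members, with 482, 489.7 and 493 CPM in the wild-type libraries and 579, 574 and 569.7 CPM in the Mc5r-null libraries. The rise was 1.18-fold, small but far outside the spread between libraries (log2 change 0.23 ± 0.02 (SE), edgeR adjusted p = 2.9e-05), and it held in all 14 alternatives. Sik3, whose promoter stretch with 3 core sites is printed above, had 65.4, 68.8 and 70.2 CPM in the wild-type libraries and 77.3, 75.8 and 77.3 CPM in the Mc5r-null libraries and rose 1.13-fold (log2 change 0.17 ± 0.04 (SE), edgeR adjusted p = 0.0103), and DESeq2 did not call it (adjusted p = 0.0818). Sik2 had 24.0, 23.6 and 24.4 CPM in the wild-type libraries and 20.2, 23.4 and 21.9 CPM in the Mc5r-null libraries and was not called (edgeR adjusted p = 0.192), although all its Mc5r-null libraries were below the wild-type ones. Sik1 made up 92.1 ± 0.123% of the summed FPKM of the 3 kinases (SD, n = 3) in wild type and 92.7 ± 0.119% (SD, n = 3) without Mc5r.

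Other genes of the pathway, outside the 43, came from 4 lists. Without repeats and without Mc5r, 115 were in the table, 82 were tested, 20 were higher and 19 were lower (47.6% called, against 32.9% of all genes). With DESeq2 13 were higher and 14 lower. The lists were chosen with earlier results of these data known, and the abundance of their genes was not compared with that of all genes. Among 22 Gs-coupled receptors, 13 were tested including Mc5r, and 5 were higher and 3 lower with Mc5r counted among the lower ones (over all genes tested, 16.8% and 16.1%). Mc5r is the gene that was knocked out, so its fall was set by the design. The least stable of these calls, a rise, was lost in 9 of the 14 alternatives. The prostaglandin E2 receptor genes of the Gs class both fell, Ptger4 from 73.9 ± 1.65 CPM to 53.1 ± 3.59 CPM (1.39-fold, edgeR adjusted p = 0.000294) and Ptger2, which was added after its values were seen, from 4.1 ± 0.332 CPM to 2.71 ± 0.183 CPM (1.51-fold, edgeR adjusted p = 0.0127), a call that DESeq2 did not make (adjusted p = 0.127). In contrast the adenosine receptor gene Adora2a rose 1.64-fold from 11.5 ± 0.724 CPM to 18.8 ± 1.28 CPM and Calcrl, which encodes the receptor component for adrenomedullin and CGRP, 1.32-fold from 28.6 ± 0.813 CPM to 37.7 ± 1.42 CPM (edgeR adjusted p = 0.00046 and 0.000864). Lhcgr, the luteinizing hormone receptor gene, rose 1.75-fold from 1.85 ± 0.238 CPM to 3.24 ± 0.146 CPM (edgeR adjusted p = 0.00611; with DESeq2 0.0598, not called). By deposited FPKM, Ptger4 (9.85 in wild type) was the most abundant of the Gs-coupled receptors named here, and Mc5r had 2.36.

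Of 18 Gi-coupled receptors, 12 were tested, 3 were higher and 4 were lower (over all genes tested, 16.8% and 16.1%). Cxcr4, the receptor that retains stem cells in marrow, fell 1.25-fold from 119 ± 2.86 CPM to 95.8 ± 1.26 CPM, and the chemokine receptor gene Ccr2 fell 2.2-fold from 39.5 ± 6.16 CPM to 18 ± 2.65 CPM (edgeR adjusted p = 0.000147 and 0.00218). Gpr183, an oxysterol receptor gene, fell 1.87-fold from 2.94 ± 0.532 CPM to 1.56 ± 0.149 CPM (edgeR adjusted p = 0.00915; with DESeq2 0.0573, not called). The sphingosine-1-phosphate receptor gene S1pr1 rose 1.44-fold from 9.97 ± 0.23 CPM to 14.3 ± 0.364 CPM, the Gi-coupled prostaglandin E2 receptor gene Ptger3 1.31-fold from 21.0 ± 1.8 CPM to 27.5 ± 0.758 CPM, and Sstr2 1.59-fold (edgeR adjusted p = 0.00127, 0.00496 and 0.00206). Ccr2 is a gene of monocytes, whose markers were 1 higher and 5 lower of 7 tested, with a summed level of 435 to 526 CPM in wild type and 326 to 372 CPM in Mc5r-null. Their part in the fall of Ccr2 was not tested.

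Of 53 further G protein subunits, regulators, anchors and enzymes in the table, 38 were tested, 7 were higher and 8 were lower (over all genes tested, 16.8% and 16.1%). The G protein gamma subunit genes Gng10 (1.51-fold, from 60.8 ± 3.15 CPM to 40.1 ± 1.1 CPM) and Gng12 (1.28-fold, from 113 ± 1.11 CPM to 88.3 ± 1.45 CPM) fell, as did the anchor gene Akap12 (1.83-fold, from 10.5 ± 0.989 CPM to 5.72 ± 0.719 CPM), while Rgs3, which encodes a regulator that shortens G protein signals, rose 1.64-fold from 14.3 ± 1.89 CPM to 23.5 ± 1.35 CPM (edgeR adjusted p = 6.73e-05, 6.2e-05, 0.00111 and 0.00104). Rgs18, of the same family, fell 1.19-fold (edgeR adjusted p = 0.00141).

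Genes known to be induced by cAMP did not move as a block. Of 28, which include the members Crem, Sik1, Pde4b and Pde4d, 25 were tested, 7 were higher and 6 lower, with a median log2 fold change of 0.10. Over all genes tested, 16.8% were higher and 16.1% lower. Beside Pde4b and Sik1, Fosl2, a gene of the AP-1 family, rose 1.84-fold from 115 ± 3.27 CPM to 212 ± 3.55 CPM (edgeR adjusted p = 1.5e-07). Dusp1, which encodes a MAP kinase phosphatase, fell 1.58-fold from 981 ± 26.0 CPM to 619 ± 23.4 CPM, and the immediate early genes Fos and Egr1 fell 1.24-fold and 1.19-fold (edgeR adjusted p = 2.72e-06, 8.63e-08 and 1.13e-06). Many of these genes also answer to other signals, such as growth factors and tissue handling.

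**Figure D4:**
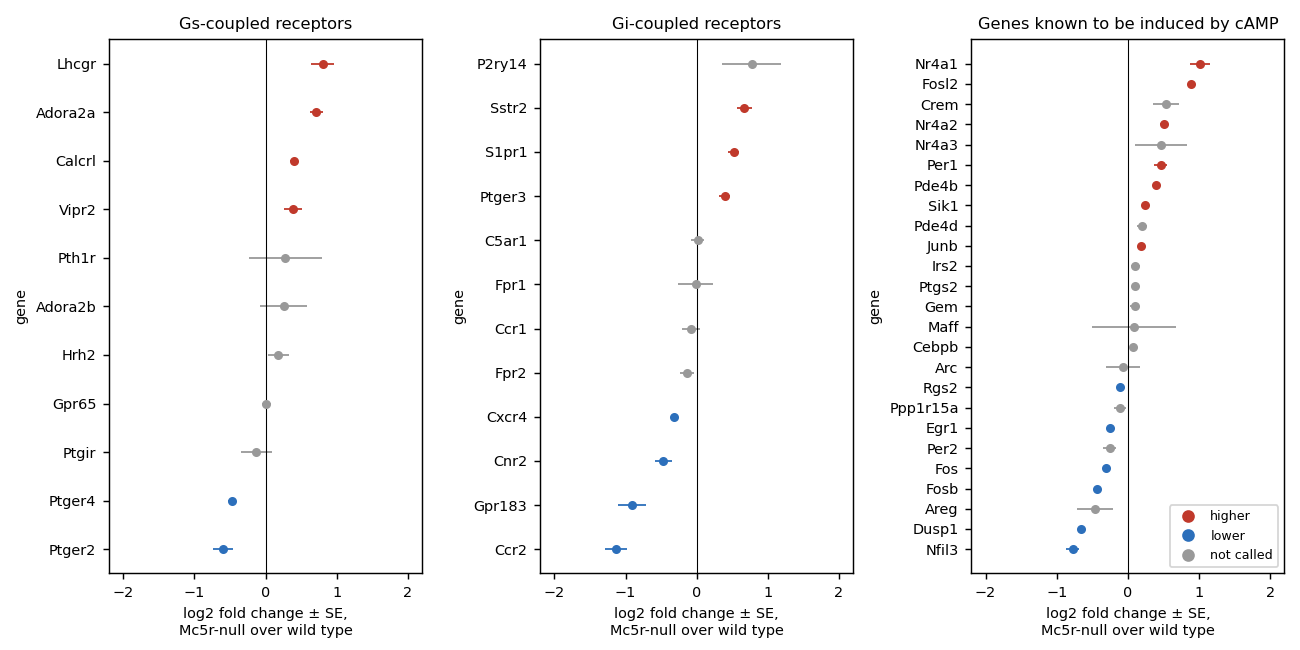
Log2 fold changes, Mc5r-null over wild type, with SE bars, for 11 of the tested Gs-coupled receptors (Mc5r is among those left out), and the tested Gi-coupled receptors and cAMP-induced genes; red is called higher, blue called lower and grey not called (edgeR). Each panel holds genes on both sides of 0, with Ptger2 and Ptger4 at the low end of the Gs-coupled receptors and Fosl2 near the high end and Dusp1 near the low end of the induced genes.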

How the data were processed

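The deposited table holds, for each gene, counts and FPKM values of the 6 libraries. The counts are the authors' raw read counts per gene and the deposited FPKM values are those counts divided by library total and gene length. Per the submitters' processing notes, CASAVA 1.8, HISAT2, StringTie, edgeR and the GRCm38 build were used; the counter, annotation and strand setting are not given in the sources used here. The FPKM lengths were compared with GENCODE release M21.

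Counts were tested with edgeR 4.0.16 (R 4.3.3): filterByExpr (minimum count 10, minimum total 15), TMM scaling, robust quasi-likelihood fit of Mc5r-null against wild type over 3 and 3 libraries, and Benjamini-Hochberg adjustment over the 15257 genes kept, with calls at 0.05. CPM are counts over TMM-scaled library sizes. SE is the log2 fold change over the root of its F statistic, and 95% intervals are unadjusted. The procedure was run on simulated data with planted changes of at least 1.5-fold. Only 1 called member, Adcy4, changed that much, and no smaller changes were planted. Shares within a family are from FPKM.

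The 43 members and all lists were chosen with earlier results of these data known. All members are named. Of each other list, up to 6 called genes with the smallest p are named, and Ptger2 and Gnaz were added; 1 gene that the rule would name is not reported here. Alternatives were RLE and upper-quartile scaling, DESeq2 1.42.0, limma-voom (limma 3.58.1), other count filters, omission of immunoglobulin genes, the replicate block, each library left out in turn, and other lengths for the shares. Principal transcript lengths, the phosphodiesterase sums outside FPKM and the marker sum without Pecam1 were chosen after seeing the data.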

Additional observations from a re-analysis of the deposited data

How the results depend on the processing

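Of the 17 called members, 11 were called in all 14 alternatives. DESeq2 gave 2 members lower in place of 5, 13 other pathway genes higher in place of 20, and over all genes 1655 higher and 1446 lower in place of 2567 and 2456. With 1 library left out, 12 to 14 members were higher and 4 to 6 lower, and the median log2 fold change of the members was 0.0248 to 0.1037. Deviations of same-numbered libraries did not correlate (r = -0.000142, -0.03 and -0.027). This cannot exclude that the numbers pair the samples, since noise between libraries can hide shared deviations. With the replicate block 12 members were higher and 4 lower, and over all genes 2254 were higher and 2148 lower. Changes of sign were all in members not called: Prkaca with upper-quartile scaling (log2 fold change -0.0052) and without a count filter (-0.0029) and, with 1 library left out in turn, Adcy3 (-0.0232 to 0.23), Adcy7 (-0.1189 to 0.1239), Prkaca (-0.0366 to 0.0267), Pde1b (-0.0692 to 0.1239), Rapgef4 (-4e-04 to 0.5731), Akap1 (-0.0364 to 0.0318) and Akap8 (-0.068 to 0.0075). The cause was not tested. Wild-type shares depend on the length used. From counts in place of FPKM, Prkacb held 73.6% of its family, Prkar1a 80.8%, Gnai2 73.1%, Pde4b 41.7% and Sik1 84.1%. With the length of the principal transcript, an alternative chosen after seeing the data, Prkacb held 59.4%, Prkar1a 82.7%, Gnai2 80.0%, Adcy7 72.9%, Pde4b 40.0%, Pde2a 21.7% and Sik1 86.0%. Low counts limit Adcy4, Rapgef4, Prkar1b and Pde10a.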
